A study of Mus musculus with 36 samples.

Results

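The genes described here are 10 genes of mucus-producing goblet cells: Clca1, Agr2, Muc5ac, Muc5b, Fcgbp, Spdef, Foxa3, Tff2, Fer1l6 and Scin. They were taken by gene symbol, with every probe set that carries one of these symbols alone, and make up 10 of the 18193 genes with a symbol of their own and 12 of the 45101 probe sets on the array. Their level was read in the lungs of mice given ovalbumin (OVA), an egg protein used as allergen in a model of severe asthma, and in mice given phosphate-buffered saline (PBS). One Affymetrix whole-genome mouse array was hybridised per lung sample, 36 in all, and values are log2 intensities. OVA mice had 3 injections of 50 µg OVA in 0.1 ml PBS into the peritoneum (days 1, 4 and 7), then 20 µg OVA in 30 µl PBS into the nose once a week for 9 weeks from day 12, and PBS mice had PBS by the same routes and times.

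All mice were labelled female on a C57BL/6 background, with no age given beyond age matching. WT mice were wild type without engraftment. KitWsh mice carried the sash mutation of Kit, which leaves them without mast cells, and were not engrafted. KitWsh_MC and KitWsh_MCifngR mice were KitWsh mice with engraftments coded MC and MCifngR, codes that the labels do not spell out. KitWsh_MCigeR mice had the engraftment code MCigeR and the genotype label KitWsh/FcεRIγ-/-, and it is not stated whether recipients, engrafted cells or both carried that deletion. Each kind of mouse had 4 OVA arrays. PBS arrays numbered 4 in WT and 3 in each other kind. Separate animals are not stated for the samples within a group, and the spread behind each p-value may then be technical in part.

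Goblet cells of the airway surface make and store the gel of mucus. In allergic airways interleukin 13, acting through its receptor and STAT6, leads secretory cells to take on goblet cell features, and SPDEF and FOXA3 are transcription factors of that change in mice. MUC5AC and MUC5B are the gel-forming mucins of the airway. AGR2 is a protein disulfide isomerase of the endoplasmic reticulum that mucin folding needs, CLCA1 and FCGBP are secreted proteins of mucus, and TFF2 is a secreted trefoil peptide. SCIN is a calcium-dependent actin-severing protein, and FER1L6 belongs to the ferlin family of membrane proteins.

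Promoter sequences, from 250 bases before to 50 after the transcript start that RefSeq's annotation lists for the gene, were found for 5 of the 10 genes in RefSeq (GRCm38.p6). Of these, 3 are shown because they stand for the kinds of pattern described below: Agr2, the gene whose level differed between kinds of OVA mice, Scin, an effector that was low in all PBS lungs, and Spdef, the regulator. The Agr2 window is chr12:35992675-35992974 (plus strand), the Scin window chr12:40134179-40134478 (minus strand) and the Spdef window chr17:27728902-27729201 (minus strand). The Spdef window lies inside the full span of the gene (chr17:27714446-27731003). Capitals mark matches to any of the motifs searched on both strands: TNTTTAC for forkhead factors such as FOXA3, TTC and GAA parted by 4 bases for STAT6, CCGGAT for SPDEF, TATAAA for the TATA box and TGACGTG for factors of the CREB3 family.
Agr2: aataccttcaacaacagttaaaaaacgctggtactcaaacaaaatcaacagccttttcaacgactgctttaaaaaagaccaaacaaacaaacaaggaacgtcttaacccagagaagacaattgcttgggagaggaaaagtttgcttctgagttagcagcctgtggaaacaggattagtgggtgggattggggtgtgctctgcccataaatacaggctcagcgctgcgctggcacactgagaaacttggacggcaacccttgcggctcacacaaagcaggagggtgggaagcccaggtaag
Scin: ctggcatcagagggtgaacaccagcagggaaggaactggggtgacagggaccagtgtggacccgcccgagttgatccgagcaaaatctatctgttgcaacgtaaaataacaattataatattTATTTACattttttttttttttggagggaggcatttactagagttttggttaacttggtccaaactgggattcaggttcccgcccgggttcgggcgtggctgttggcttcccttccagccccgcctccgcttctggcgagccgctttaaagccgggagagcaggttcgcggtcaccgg
Spdef: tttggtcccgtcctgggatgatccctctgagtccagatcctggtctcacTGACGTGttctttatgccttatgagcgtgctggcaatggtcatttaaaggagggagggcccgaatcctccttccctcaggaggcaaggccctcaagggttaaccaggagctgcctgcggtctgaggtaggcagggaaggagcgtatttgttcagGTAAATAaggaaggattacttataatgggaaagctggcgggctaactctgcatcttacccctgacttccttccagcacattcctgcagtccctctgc
The Scin window held 1 forkhead match, from -128 to -122 relative to the start its window is built on, and the Spdef window held 1 on the opposite strand, from -47 to -41. A TGACGTG match lay from -201 to -195 in the Spdef window, and no listed motif was found in the Agr2 window. Among 32851 RefSeq promoters of the same length, 12.4% held the forkhead motif, 6.95% the STAT6 motif, 6.04% the SPDEF motif, 13.6% TATAAA and 2.01% TGACGTG. No motifs overlapped in the windows shown. A match describes the letters only.

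Some arrays stood apart and touch the results below. KitWsh_MCigeR PBS array 2 correlated with the rest at a median Pearson r of 0.543 over tested genes, where the other 35 arrays had 0.882 to 0.971, and its difference between the 3' and 5' beta-actin control probe sets was 8.43, against 1.17 to 6.23. It is called the failed array below, and results are given with all 36 arrays and without it. WT OVA array 4 had a Kit level of 6.90, where the other 7 WT arrays had 9.86 to 10.97 and the 28 KitWsh arrays had 4.52 to 7.52. The Y-linked gene Eif2s3y was at 9.07 to 9.81 on WT OVA array 4 and KitWsh_MCifngR OVA arrays 2 and 3, and at 2.19 to 3.60 on the other 33, although all samples were labelled female. The labels were kept. Values are listed in array order, so the last WT OVA value and the middle pair of KitWsh_MCifngR OVA values in each list come from these arrays. The lungs had the defining markers of airway epithelium: the club cell marker Scgb1a1 was at 15.37 to 15.89 on all 36 arrays, and the ciliated cell regulator Foxj1 was over 5 on 35.

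Goblet cell and mucus genes rose with the challenge in the average over the 5 kinds of mice. All 9 tested genes were called higher in OVA than in PBS lungs (limma, adjusted p under 0.05 over 11599 genes), where 8.79% of all tested genes were called higher. None of the 9 was called lower, where 7.80% of tested genes were. Foxa3 was not tested, because only 1 of its 36 values passed log2 5, and the filter asked for 3. Muc5ac, Scin and Fer1l6 passed it through OVA arrays alone, and Spdef through OVA arrays and the failed array. Such genes could hardly be called lower, and all the genes were chosen with earlier results of these data known. Counts of calls among them, here and below, are therefore descriptions. The median difference of the 9 genes was 2.88 log2 units, and that of all tested genes 0.06. Without KitWsh_MCigeR PBS array 2, all 9 were again called higher, with 12.2% of tested genes. In a lung homogenate, more goblet cells and more RNA per goblet cell cannot be told apart.

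**Figure D1:**
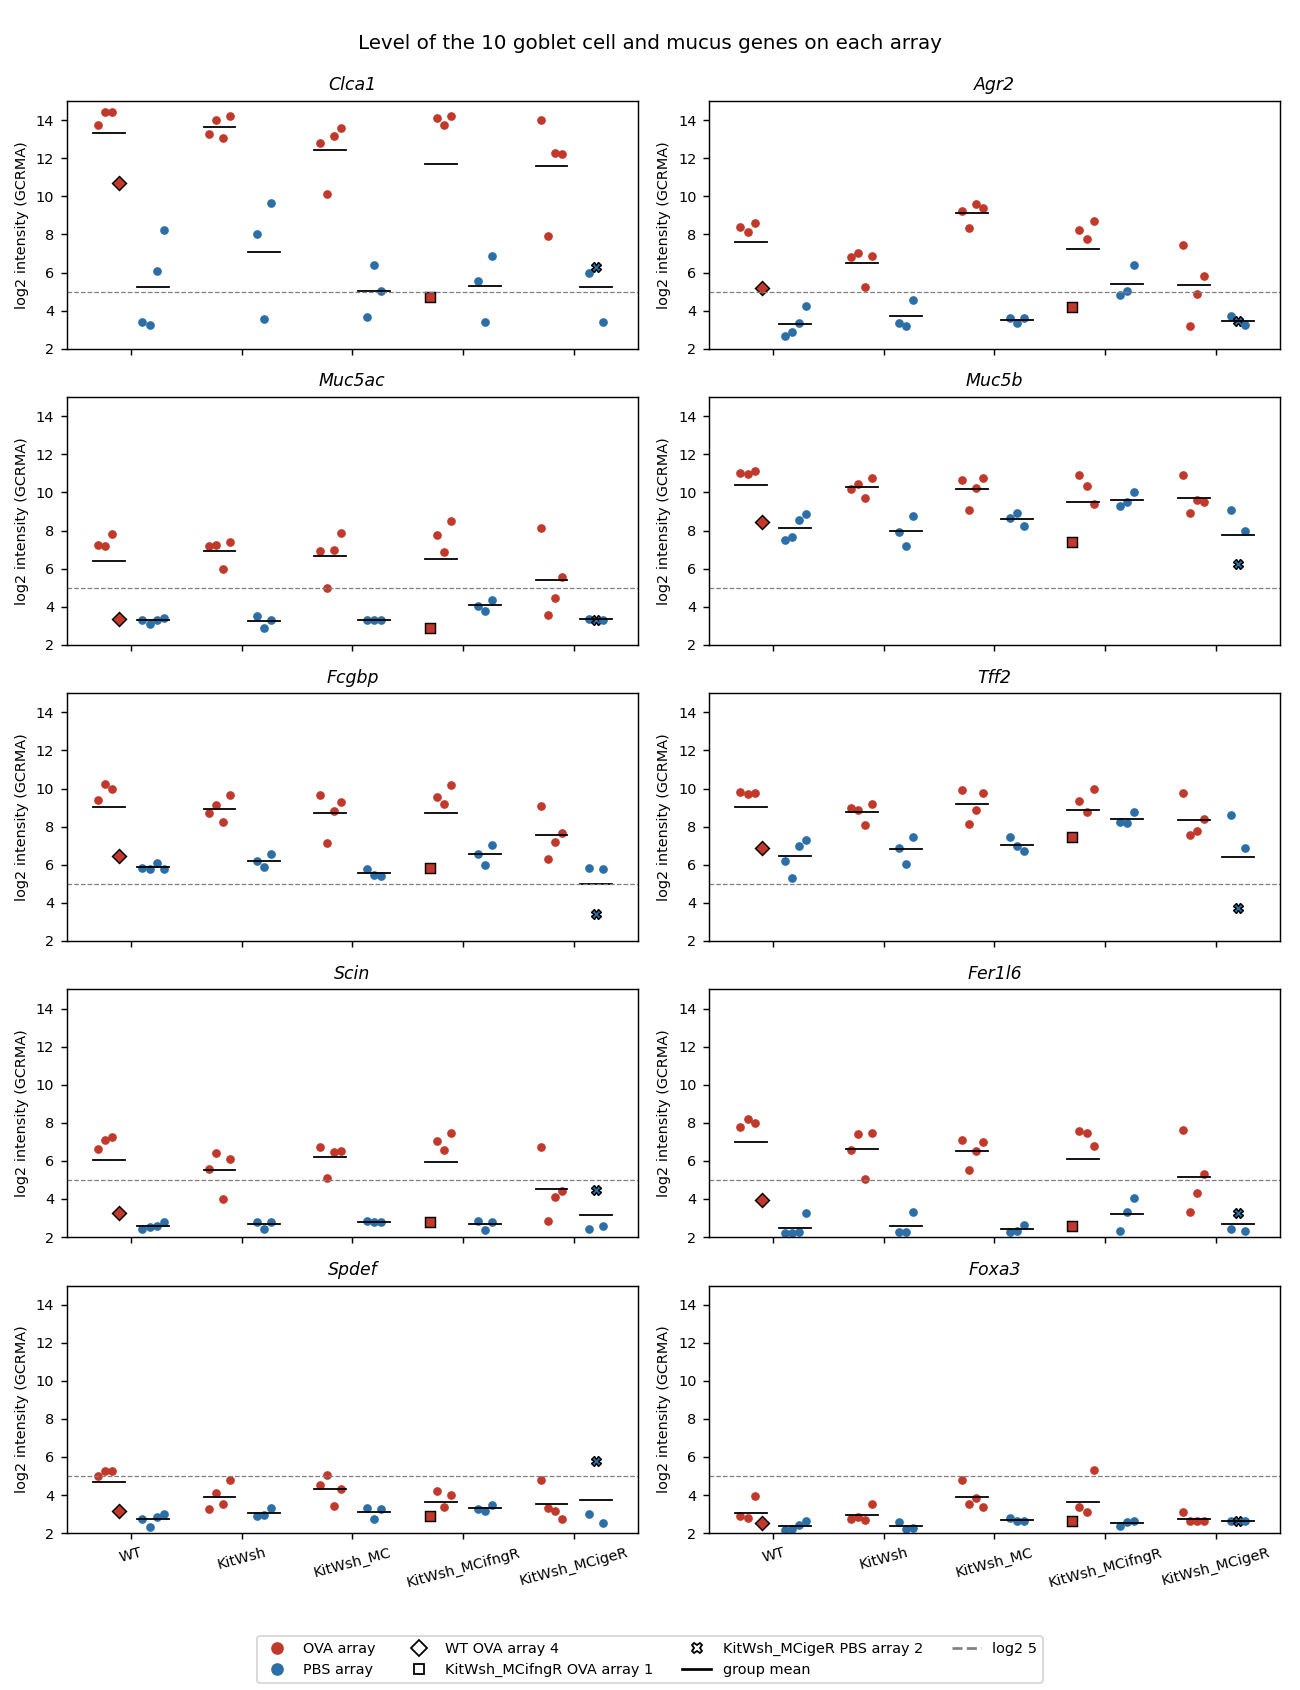
Log2 intensity (vertical axes, GCRMA) of each of the 10 genes on every array, with OVA arrays in red left of PBS arrays in blue for each of the 5 kinds of mice, black bars for group means and a dashed line at log2 5. The failed KitWsh_MCigeR PBS array 2 is a cross; WT OVA array 4 (diamond) and KitWsh_MCifngR OVA array 1 (square) lie under the other arrays of their groups, and Foxa3 passes the line on 1 array.

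Clca1, a secreted protein long used as a goblet cell marker in mouse lung, differed most. Its main probe set (1416306_at, gene on chromosome 3) had 13.77, 14.41, 14.45 and 10.69 on the WT OVA arrays, against 3.41, 3.23, 6.09 and 8.24 on the WT PBS arrays. KitWsh mice had 13.25, 14.02, 13.05 and 14.21 with OVA, against 8.03, 3.59 and 9.63 with PBS. These 2 pairs of groups did not overlap, although 1 WT and 2 KitWsh PBS lungs were over log2 8. KitWsh_MC mice had 12.82, 10.12, 13.18 and 13.57 with OVA, against 3.67, 6.40 and 5.05 with PBS. KitWsh_MCifngR mice had 4.73, 14.09, 13.74 and 14.22 with OVA, against 5.56, 3.41 and 6.86 with PBS. KitWsh_MCigeR mice had 14.00, 7.91, 12.26 and 12.23 with OVA, against 5.98, 6.32 and 3.41 with PBS. Only KitWsh_MCifngR groups overlapped, through OVA array 1, whose Clca1 level lay among the PBS values. Over all OVA arrays, 18 of 20 were above the highest of the 15 PBS arrays left after taking out the failed one. The average difference was 6.96 ± 0.78 (log2, standard error, adjusted p = 2.74e-06), a 125-fold change in intensity. As 6 of those 15 PBS values lay under log2 5, the size of this fold is uncertain. The second Clca1 probe set, 1459889_at, gave 2.54 ± 0.41 in a fit of all probe sets (adjusted p = 0.000201), so the direction was shared and the size was not. It lay at or near the floor on PBS arrays, with a highest value there of 3.11.

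Both gel-forming mucins rose in the average, with different starting points. Muc5ac (1430899_at, chromosome 7) lay under log2 5 on all 16 PBS arrays, between 2.86 and 4.37, a range set by the background model in which values have no order. With OVA it was at 7.23, 7.21, 7.84 and 3.34 in WT, 7.17, 7.26, 5.96 and 7.40 in KitWsh, and 6.90, 5.01, 6.96 and 7.87 in KitWsh_MC mice. KitWsh_MCifngR OVA lungs had 2.86, 7.76, 6.85 and 8.53, and KitWsh_MCigeR OVA lungs had 8.11, 3.56, 4.47 and 5.56. Thus 4 of the 20 OVA arrays, in 3 kinds of mice, had no Muc5ac above log2 5. The average difference was 2.94 ± 0.44 (adjusted p = 7.56e-05). WT OVA minus PBS was not called for Muc5ac (adjusted p = 0.0769). Its WT OVA mean lay 2.64-fold over log2 5, but array 4 was itself under log2 5, so this is no strict bound. Without WT OVA array 4, Muc5ac was at least 5.37-fold higher in WT OVA lungs (adjusted p = 0.00627, called). It was at least 3.22-fold higher in KitWsh_MC OVA lungs (adjusted p = 0.038).

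Muc5b (1427626_at, chromosome 7), the mucin also made by secretory cells of unchallenged airways, was measured on every array, with 7.42 to 11.12 over the 20 OVA arrays and 7.20 to 10.03 over the 15 PBS arrays. With OVA, WT lungs had 11.01, 10.96, 11.12 and 8.43, against 7.52, 7.66, 8.57 and 8.86 with PBS. The lowest WT OVA value, from array 4, fell inside the PBS range. KitWsh_MCifngR lungs had 7.42, 10.92, 10.33 and 9.41 with OVA, against 9.27, 9.50 and 10.03 with PBS. The difference of these means was -0.08 ± 0.70, while in the other 4 kinds Muc5b differences were 1.58 to 2.31 with all arrays. Without the failed array the KitWsh_MCigeR difference was 1.19 in place of 1.95. The KitWsh_MCifngR PBS mean of 9.60 was the highest among the PBS groups, though no PBS pair was called. Leaving out OVA array 1 of that kind turned its difference to 0.62. Over all kinds the average was 1.60 ± 0.31 (adjusted p = 0.000796), a 3.02-fold change.

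Agr2 (1419268_at, chromosome 12) rose with challenge and was the one gene of the 9 tested whose level was called different between kinds of OVA mice. WT lungs had 8.39, 8.16, 8.59 and 5.21 with OVA, against 2.69, 2.90, 3.37 and 4.24 with PBS. KitWsh lungs had 6.84, 7.04, 5.23 and 6.89 with OVA, against 3.33, 3.21 and 4.55 with PBS. KitWsh_MC lungs had 9.22, 8.34, 9.60 and 9.42 with OVA, against 3.59, 3.33 and 3.59 with PBS. In these 3 kinds every OVA value was above every PBS value. KitWsh_MCifngR lungs had 4.19, 8.24, 7.77 and 8.71 with OVA, against 4.81, 5.04 and 6.39 with PBS, the highest PBS level of any kind. KitWsh_MCigeR lungs had 7.46, 3.21, 4.89 and 5.80 with OVA, against 3.71, 3.48 and 3.25 with PBS. Both of these pairs overlapped. The average difference was 3.28 ± 0.38 (adjusted p = 3.23e-06), and 3.28 ± 0.39 without KitWsh_MCigeR PBS array 2. Agr2 lay under log2 5 on 13 of the 15 other PBS arrays. The sizes of its differences therefore rest on values without order.

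OVA means of Agr2 ran, low to high, 5.34 ± 1.77 in KitWsh_MCigeR, 6.50 ± 0.85 in KitWsh, 7.23 ± 2.06 in KitWsh_MCifngR, 7.59 ± 1.60 in WT and 9.15 ± 0.56 in KitWsh_MC lungs (SD, n = 4 each). Neighbours in this order differed by less than the larger of their SDs, and for the top pair KitWsh_MC minus WT was 1.56 ± 0.80 (adjusted p = 0.225). KitWsh_MC minus KitWsh was 2.65 ± 0.80 (adjusted p = 0.0349), with every KitWsh_MC value above every KitWsh value and 5.46% of tested genes called higher. KitWsh_MCigeR minus KitWsh_MC was -3.81 ± 0.80 (adjusted p = 0.00981), again without overlap, with 1.64% of tested genes called lower. The 3' to 5' differences of beta-actin and Gapdh averaged 3.34 and 3.55 in KitWsh_MC OVA lungs, with array 2 at 6.23 and 6.77. They averaged 1.74 and 1.03 in KitWsh OVA lungs and 1.95 and 1.55 in KitWsh_MCigeR OVA lungs, so both called pairs differed in them. With the beta-actin difference as a covariate, KitWsh_MC minus KitWsh was 2.95 (adjusted p = 0.0167). That fit included the failed array, at 8.43, and its value for KitWsh_MCigeR minus KitWsh_MC is not given. In PBS lungs the same pairs differed by -0.19 ± 0.93 and -0.03 ± 0.93. All these PBS values lay under log2 5, where values have no order. They cannot show whether PBS levels were alike. The first call was lost without any 1 of 7 arrays (each KitWsh_MC OVA array and KitWsh OVA arrays 2, 3 and 4), with adjusted p up to 0.156, and the second without KitWsh_MCigeR OVA array 2 (adjusted p = 0.0527). The second Agr2 probe set, 1455802_x_at, passed log2 5 on 7 of 36 arrays. Its average difference was 1.39 ± 0.24 (adjusted p = 0.000402), largest in KitWsh_MC mice at 2.92 ± 0.54 and smallest in KitWsh_MCigeR mice at 0.14 ± 0.54. The Agr2 promoter printed above held none of the motifs searched.

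Fcgbp and Tff2, both found in secreted mucus, were over log2 5 on the 15 PBS arrays other than the failed one. The failed array had 3.42 and 3.71. The PBS ranges given here leave it out, and the average differences include it. Its low Fcgbp value took the KitWsh_MCigeR PBS mean from 5.79 to 5.00, so the averages are larger with it. Both genes were also called higher without it. Fcgbp (1426872_at, chromosome 7) ran from 5.82 to 10.26 with OVA (median 9.11), against 5.41 to 7.04 with PBS (median 5.83), and 17 of 20 OVA arrays were above every PBS array. Its average difference was 2.76 ± 0.37 (adjusted p = 1.75e-05), a 6.76-fold change. Tff2 (1422448_at, chromosome 17) ran from 6.88 to 10.00 with OVA (median 8.95), against 5.30 to 8.80 with PBS (median 6.97). Here 12 of 20 OVA arrays were above every PBS array, so the ranges overlapped more than for Fcgbp. Tff2 averaged 1.83 ± 0.35 higher (adjusted p = 0.00081), with 0.48 ± 0.80 in KitWsh_MCifngR mice, whose PBS lungs averaged 8.41, against 6.45 to 7.04 in WT, KitWsh and KitWsh_MC PBS lungs and 7.74 in KitWsh_MCigeR PBS lungs without the failed array (6.40 with it).

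Scin and Fer1l6, the genes of the set linked to actin and to membranes, were under log2 5 on all 15 PBS arrays. Scin (1450276_a_at, chromosome 12) ran from 2.81 to 7.44 with OVA (median 6.45), against 2.35 to 2.82 with PBS, and 6 of the 20 OVA arrays were under log2 5. The failed array had 4.49. Its average difference was 2.88 ± 0.40 (adjusted p = 2.77e-05). Fer1l6 (1441818_at, chromosome 15) ran from 2.56 to 8.21 with OVA (median 6.89), against 2.20 to 4.04 with PBS, and 4 of the 20 OVA arrays were under log2 5. It averaged 3.61 ± 0.44 higher (adjusted p = 5.15e-06). WT OVA minus PBS was called for Scin (adjusted p = 0.0318) and Fer1l6 (adjusted p = 0.0122). The WT OVA means lay 2.07-fold and 3.94-fold over log2 5. Array 4 was under log2 5 for both, so these are no strict bounds. Without WT OVA array 4, WT OVA lungs held at least 3.97-fold more Scin (adjusted p = 0.00143) than WT PBS lungs. Fer1l6 was then at least 7.96-fold higher (adjusted p = 0.000638). The fitted differences of Muc5ac, Scin and Fer1l6 are taken against values under log2 5. Over the 5 kinds the average OVA means lay 2.62-fold, 1.57-fold and 2.42-fold over log2 5. These means include OVA values under log2 5, which have no order, so they are no strict bounds.

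The 2 transcription factors lay near the floor of the array. Spdef (1450220_a_at, chromosome 17) had 5.00, 5.28, 5.29 and 3.16 in WT OVA lungs, against 2.72, 2.31, 2.83 and 3.01 in WT PBS lungs, and passed log2 5 on 4 of 36 arrays. One of those was the failed KitWsh_MCigeR PBS array 2, at 5.76. Spdef averaged 0.81 ± 0.25 higher with all arrays (adjusted p = 0.026) and 1.01 ± 0.21 without that array (adjusted p = 0.000807). In KitWsh_MCigeR mice alone the difference was -0.26 ± 0.57 with the array and 0.74 ± 0.52 without it, and neither was called. Foxa3 (1431900_a_at, chromosome 7) was between 2.54 and 5.32 with OVA, against 2.19 to 2.80 with PBS. All PBS values and 19 of 20 OVA values lay under log2 5, so no difference is given.

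**Figure D2:**
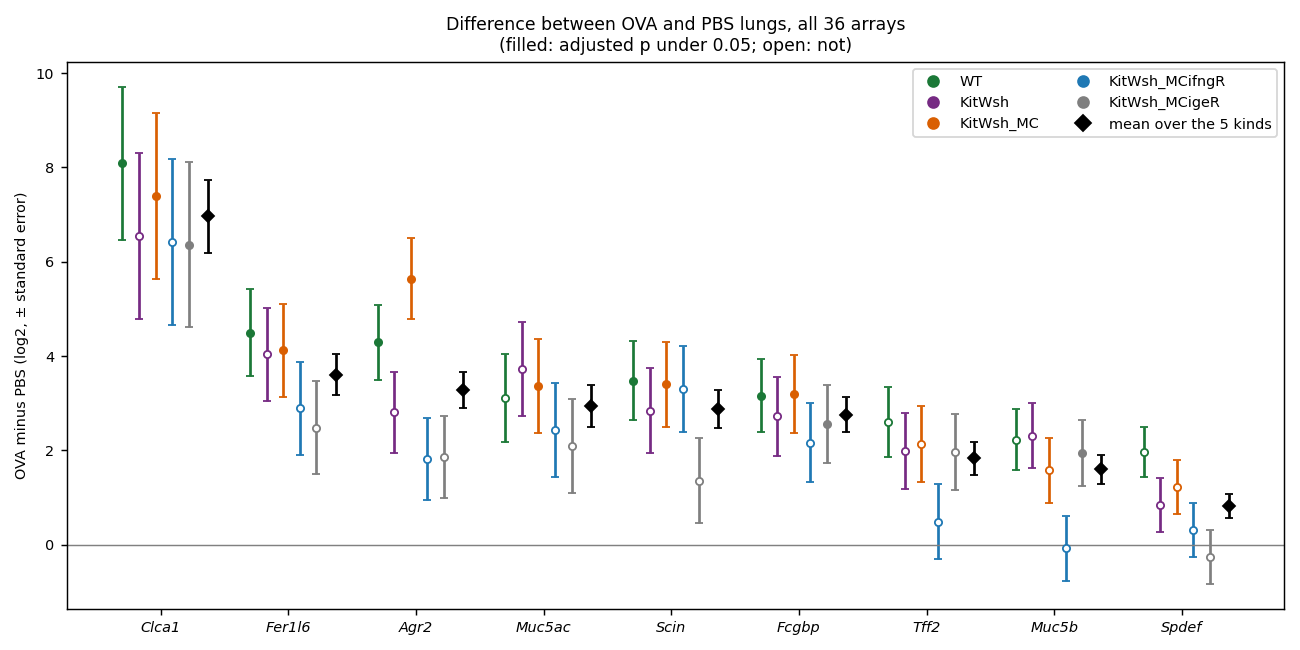
OVA minus PBS difference in log2 intensity (vertical axis, ± standard error) of the 9 tested genes in each of the 5 kinds of mice (circles, filled where called) and in their average (black diamonds), all 36 arrays. Clca1 stands at 6.37 to 8.09 in every kind, and Agr2 runs from 1.81 in KitWsh_MCifngR to 5.64 in KitWsh_MC mice.

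Taken kind by kind, fewer genes passed the test. In WT mice 5 of the 9 were called higher (Clca1, Agr2, Fcgbp, Fer1l6 and Scin), where 0.535% of tested genes were called higher and 0.828% lower. Without the failed array all 9 were called, with 3.97% of tested genes. Leaving out 1 WT array at a time gave 0 calls without OVA array 1, 1 without OVA array 2 or PBS array 1, 2 without OVA array 3 or PBS array 2, 3 without PBS array 3 and 4 without PBS array 4, where 0.0431% to 0.638% of tested genes were called higher. Without OVA array 4 all 9 were called, with 2.95% of tested genes. Every OVA array was above every PBS array for 6 genes, against 7.60% of tested genes.

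In KitWsh mice none of the 9 was called by limma with all arrays, where 0.138% of tested genes were called higher and 0.483% lower. At an unadjusted p under 0.05 there were 8. For this and later counts at that threshold, the share of all tested genes was not counted. They are therefore no result about the 9 genes. The differences of the 9 ran from 0.84 ± 0.57 for Spdef to 6.55 ± 1.76 for Clca1, and all were positive. Without the failed array 7 were called higher (all but Spdef and Tff2), with 1.40% of tested genes. Every KitWsh OVA array was above every KitWsh PBS array for 8 of the 9 genes (7.53% of tested genes), the exception being Spdef.

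In KitWsh_MC mice 6 were called higher with all arrays (the 5 of WT mice and Muc5ac), where 3.88% of tested genes were called higher and 2.64% lower, and 7 without the failed array, with 10.7%. Their differences ran from 1.21 ± 0.57 for Spdef to 7.39 ± 1.76 for Clca1. Leaving out PBS array 1 left 2 calls, and leaving out OVA array 1, PBS array 2 or PBS array 3 left 3, with 1.53% to 2.48% of tested genes called higher. All 9 genes had every OVA array above every PBS array (12.6% of tested genes).

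In KitWsh_MCifngR mice none was called by limma with all arrays (0.103% of tested genes called higher and 0.0517% lower) or without the failed array (0.431% higher). With all arrays 6 had an unadjusted p under 0.05. No gene had every OVA array above every PBS array, where 8.10% of tested genes had. Without OVA array 1, 5 of the 9 were called higher, with 0.388% of tested genes. That array lay at or below the highest PBS array of its kind for all 10 genes. Its 3' to 5' differences were 4.81 for beta-actin and 7.51 for Gapdh. Array 4 of the group had 3.48 and 5.69, with the group's highest mean of the 9 genes (8.81). Foxj1 was at 5.40 on array 1, against 7.67 to 9.55 on the other 3 arrays of its group. The mean of all tested ciliated cell markers differed less, at 7.89 against 8.09 to 8.67. The mean of the club cell markers was 12.33, against 12.30 to 12.90. The part of RNA quality in these values was not tested.

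In KitWsh_MCigeR mice 3 were called higher with all arrays (Clca1, Muc5b and Fcgbp), where 16.0% of tested genes were called higher and 2.99% lower. Without PBS array 2, the failed array, none was called and neither was any other gene (0%), with an unchanged direction for 8 of the 9 and Spdef turning positive. Without any 1 of the 4 OVA arrays the count was also 0, and without PBS array 1 or 3 it was 4, with 44.0% and 43.3% of tested genes called higher. Every OVA array was above every PBS array for 4 genes (7.20% of tested genes), and for 5 genes when PBS array 2 was set aside (9.16%).

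The comparisons that bear on Kit and the engraftments set the challenge response of 1 kind of mouse against that of another. No gene of the 9 was called by limma in any of the 5 response differences, and 1, Agr2, had an unadjusted p under 0.05 in 3 of them. Here the share of all tested genes called was 0.00862% for KitWsh minus WT, 0.517% for KitWsh_MC minus KitWsh, 0.0690% for KitWsh_MC minus WT, 0.0345% for KitWsh_MCifngR minus KitWsh_MC and 0.293% for KitWsh_MCigeR minus KitWsh_MC. For Clca1, KitWsh minus WT was -1.53 ± 2.40 (95% interval -6.44 to 3.37), and for Muc5ac 0.61 ± 1.36 (-2.18 to 3.39). Intervals this wide include changes of several log2 units either way, so these values do not show that the responses were alike. Agr2 had the response differences farthest from 0: 2.84 ± 1.22 for KitWsh_MC minus KitWsh (adjusted p = 0.337), -3.83 ± 1.22 for KitWsh_MCifngR minus KitWsh_MC (adjusted p = 0.229) and -3.78 ± 1.22 for KitWsh_MCigeR minus KitWsh_MC (adjusted p = 0.0985). These 3 differences share the KitWsh_MC arrays.

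Among OVA lungs, no gene was called in KitWsh minus WT (0.121% of tested genes called), KitWsh_MC minus WT (8.93%) or KitWsh_MCifngR minus KitWsh_MC (13.2%), and Agr2 was the only call in the other 2 pairs, given above. Between OVA lungs of KitWsh and WT mice, Clca1 differed by 0.31 ± 1.63 (95% interval -3.02 to 3.63), Muc5ac by 0.54 ± 0.93 (-1.35 to 2.44) and Muc5b by -0.10 ± 0.64 (-1.42 to 1.21). At an unadjusted p under 0.05 these 3 pairs held 0, 0 and 1 gene, again Agr2. Between PBS lungs no gene was called in KitWsh minus WT (1.18%), KitWsh_MC minus KitWsh (1.20%), KitWsh_MCifngR minus KitWsh_MC (2.91%) or KitWsh_MCigeR minus KitWsh_MC (1.03%), and 1, Agr2 in the third of these pairs, had an unadjusted p under 0.05.

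The 9 tested genes moved together from lung to lung within a group, with Spdef following the others least closely. WT OVA array 4 had the lowest value of its group for all 10, KitWsh_MCifngR OVA array 1 for all 10, KitWsh OVA array 3 for 9, KitWsh_MCigeR OVA array 2 for 9 and KitWsh_MC OVA array 2 for 8. At the other end, KitWsh_MCigeR OVA array 1 had the highest value of its group for all 10. These counts include Foxa3, with 19 of 20 OVA values under log2 5, where values have no order. Its lowest value in KitWsh_MCigeR OVA lungs, 2.62, was a tie that array 2 shared with other arrays. Taken as deviations from the group mean over the 20 OVA arrays, the 36 pairs of tested genes had a median Pearson r of 0.91 (0.46 to 0.98), and 0.85 (0.24 to 0.96) without the 2 arrays farthest from the median, KitWsh_MCifngR OVA array 1 and WT OVA array 4. Clca1 with Spdef was the lowest pair in both. These arrays share their normalisation, and the correlations are descriptions. Across the same arrays the mean deviation of the 9 genes had an r of 0.22 with that of the club cell list, 0.42 with the ciliated cell list, 0.63 with the general epithelial list and -0.51 with the beta-actin 3' to 5' difference. Without the 2 arrays these were 0.19, 0.23, 0.41 and -0.48.

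**Figure D3:**
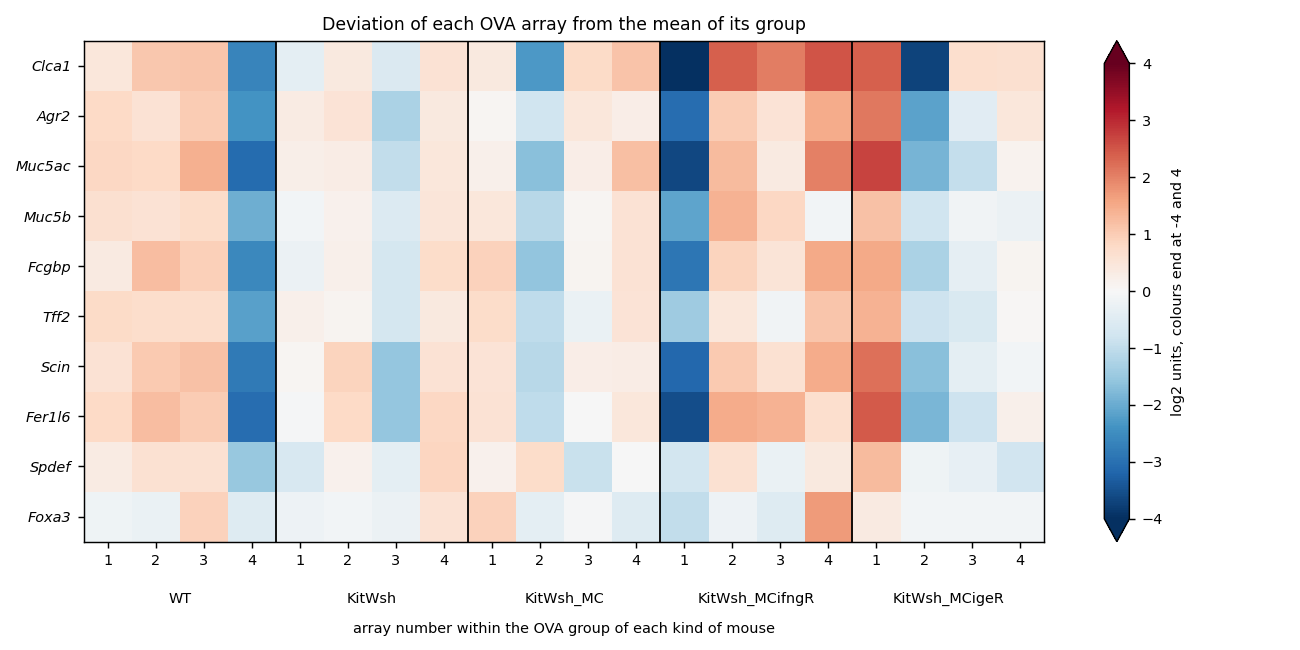
Deviation of each OVA array from its group mean (colour, log2 units) for the 10 genes (rows) on the 20 OVA arrays (columns, by kind of mouse). Whole columns are blue for WT array 4, where all 10 genes were lowest in the group, and red for KitWsh_MCigeR array 1, where all 10 were highest. Foxa3 lay under log2 5 on 19 of the 20 arrays, where values have no order.

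The other genes whose deviations followed the mean of the 9 most closely over the 20 OVA arrays were Chil4 (r = 0.94), Slc16a6 (0.94), Nans (0.92), Ccl8 (0.91), Serpina3n (0.91), Cd177 (0.91), C1qc (0.91) and Rab3il1 (0.91), and without the 2 arrays r was 0.78 to 0.89. Chil4, a chitinase-like protein, ran from 2.86 to 12.16 with OVA, against 2.20 to 3.32 with PBS, and was called higher (adjusted p = 2.15e-08). Its PBS values were all under log2 5, as was 1 of the 20 OVA values, and the average of its OVA means lay 19.4-fold over log2 5. Nans, sialic acid synthase, was not called between OVA and PBS (0.56 ± 0.27, adjusted p = 0.146). Ccl8, a chemokine, averaged 2.86 ± 0.38 higher (adjusted p = 1.67e-05).

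Other products of goblet and airway secretory cells rose as well. Of 17 listed genes 10 were tested, and 8 were called higher and none lower in the average over kinds, with a median of 1.26 (1.12 without the failed array). The shares of all tested genes called in this comparison, 8.79% higher and 7.80% lower, also stand behind the list counts that follow. Slc26a4 (pendrin, an anion exchanger) averaged 4.14 ± 0.46 higher (adjusted p = 2.74e-06), with 4.29 to 12.21 on OVA arrays, against 3.53 to 6.07 on PBS arrays. Reg3g, an antibacterial lectin, averaged 2.90 ± 0.60 higher, Gp2, a membrane glycoprotein, 2.26 ± 0.48, Bpifb1, a secreted protein of upper airways, 1.62 ± 0.32, and Pigr, the receptor that carries IgA across epithelium, 0.83 ± 0.21 (adjusted p 0.001 to 0.00615). With no test given, Slc26a4 in OVA lungs averaged 11.11 ± 0.18 in KitWsh_MC and 7.34 ± 1.83 in KitWsh mice (SD, n = 4 each), and its 4 KitWsh_MC values lay above all 4 KitWsh values. The further goblet markers Tff1, Tff3, Zg16, Ern2, Capn9, Clca2 and Clca4a were not tested, as they did not pass the filter.

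**Figure D4:**
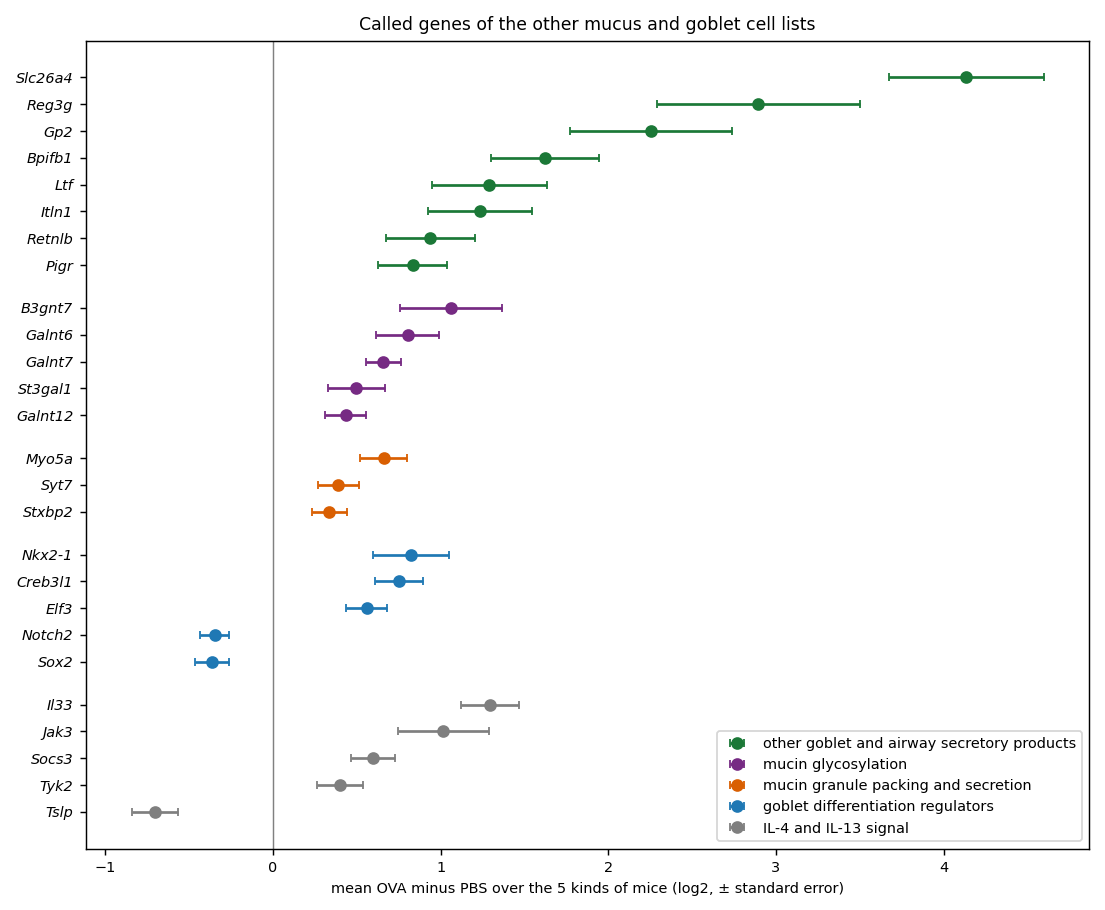
Average OVA minus PBS difference over the 5 kinds of mice (horizontal axis, log2, ± standard error) of the called genes in 5 further lists, by list and size. Slc26a4 lies farthest right at 4.14, and Notch2, Sox2 and Tslp lie left of 0.

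Enzymes that attach and extend sugar chains on mucins showed smaller differences: 5 of 14 tested of 24 listed were called higher and none lower (median 0.42, and 0.16 without the failed array). Galnt7, which adds the first sugar of mucin-type chains, averaged 0.66 ± 0.10 higher (adjusted p = 0.000134), Galnt6 0.80 ± 0.19, Galnt12 0.43 ± 0.12, the chain-extending enzyme B3gnt7 1.06 ± 0.31 and the sialyltransferase St3gal1 0.50 ± 0.17. B3gnt7 was under log2 5 on all 15 PBS arrays left without the failed one and on 12 of 20 OVA arrays. Of the genes for granule packing and secretion 3 of 17 were called higher and none lower, counts near the shares of all tested genes. Their median was 0.21, and 0.01 without the failed array. The 3 were the myosin Myo5a at 0.66 ± 0.14, the calcium sensor Syt7 at 0.39 ± 0.12 and Stxbp2, a partner of the fusion machinery, at 0.34 ± 0.11. Among 4 other mucins tested of 9 listed none was called, with Muc1 at 0.70 ± 0.28 (adjusted p = 0.0822), while without the failed array Muc1 was called higher (0.36) and Muc16 lower (-0.65). With all arrays Muc1, Tmed3 and Rab27b were each called in 1 kind: Muc1 (2.04) and Tmed3 (2.32) in KitWsh_MCigeR mice, and not without the failed array, and Rab27b (1.01) in KitWsh_MCifngR mice.

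Of 17 tested regulators of the goblet cell state 3 were called higher and 2 lower (median -0.03), counts near the shares of all tested genes. Creb3l1, a transcription factor anchored in the endoplasmic reticulum, averaged 0.75 ± 0.14 higher (adjusted p = 0.000724), the epithelial factor Elf3 0.56 ± 0.12 and the lung factor Nkx2-1 0.82 ± 0.23. Nkx2-1 lay near the floor, with a mean of 3.37 over the arrays. Notch2, a receptor involved in the secretory cell fate, averaged -0.35 ± 0.09 (adjusted p = 0.00647) and the airway factor Sox2 -0.36 ± 0.10. In the list of the interleukin 4 and 13 signal 4 of 10 were called higher and 1 lower (median 0.42, and 0.23 without the failed array). Il33, an epithelial alarm cytokine, averaged 1.30 ± 0.17 higher (adjusted p = 1.75e-05), the kinase Jak3 1.02 ± 0.27, the feedback inhibitor Socs3 0.59 ± 0.13 and the kinase Tyk2 0.40 ± 0.14, and Tslp, another epithelial cytokine, averaged -0.71 ± 0.14 (adjusted p = 0.000911). Il4 and Il13 did not pass the filter and were not tested.

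Markers of the other epithelial cells were set beside these values. None of 8 tested club cell markers, 8 ciliated cell markers or 7 general epithelial markers was called in the average over kinds with all arrays. Within kinds, Dnah5 was called lower in KitWsh_MC mice (-2.16, adjusted p = 0.0118), and Foxj1, Scgb3a1, Epcam and Cldn7 were called higher in KitWsh_MCigeR mice, none of these 4 without the failed array. In the average without the failed array 6 ciliated cell markers were called lower, where 15.3% of tested genes were called lower, with the list median at -0.33, and the club cell list had 1 higher and 2 lower, with the median at -0.17. The summed level of the club cell list (log2 of the sum) ran from 16.43 to 17.05 on OVA arrays, against 15.92 to 17.09 on PBS arrays, and that of the ciliated list from 11.98 to 13.51, against 7.96 to 13.40, a low end set by the failed array. Their defining genes Scgb1a1 and Tppp3 averaged 15.66 and 12.15 over the arrays. Among 6 basal cell markers, Pdpn alone passed the filter (mean 11.71), and Krt5 averaged 3.79, the highest of the rest. Pdpn thus stood alone in this list and gives no measure of basal cells. The general epithelial genes Cdh1 and Krt7 averaged 12.21 and 11.60, and the alveolar type 2 genes Lyz1 and Sftpc 15.46 and 15.26. One alveolar type 2 marker of 7, Sftpd, was called higher (0.43 ± 0.15). Of the serous gland list 3 of 6 genes passed the filter (Ltf, Lyz2 and Bpifa1), and Ltf, also in the list of secretory products, was called at 1.29 ± 0.34, while Lpo and Prol1 stayed at or near the floor (means 2.19 and 2.25). The part of other secretory cells in the values of the 10 genes was not tested.

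Mucus genes are also made by the stomach and gut, tissue that could reach a lung sample. Defining stomach genes were at or near the floor, with Gkn1 at 2.19 to 3.51, Atp4a at 2.19 to 2.20 and Atp4b at 2.19 to 2.93, and Gkn3 alone of 7 passed the filter (mean 5.70), followed by Tff1 (mean 4.40). The summed stomach list ran from 6.17 to 6.41 in WT OVA lungs, against 6.17 to 6.54 in WT PBS lungs, and from 6.31 to 6.82 in KitWsh OVA lungs, against 6.39 to 6.75 in KitWsh PBS lungs. It ran from 6.35 to 7.84 in KitWsh_MC OVA lungs, against 6.28 to 6.59 in KitWsh_MC PBS lungs, and from 6.11 to 7.60 in KitWsh_MCifngR OVA lungs, against 6.82 to 7.32 in KitWsh_MCifngR PBS lungs. In KitWsh_MCigeR mice it ran from 6.47 to 6.80 in OVA lungs, against 6.22 to 8.98 in PBS lungs. Gkn3 was 1.05 ± 0.59 higher in KitWsh_MC OVA than PBS lungs (adjusted p = 0.331, not called), and the part of stomach RNA in the values of the 10 genes was not tested. No oesophagus marker passed the filter, and the 2 with the highest means were Lor at 3.94 and Krt13 at 2.27. Among intestinal genes Lgals4 alone passed the filter (mean 6.54, -0.37 ± 0.10 in the average over kinds), Zg16 had a mean of 2.66, and Muc2 ranged from 2.19 to 3.77.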

How the data were processed

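Lung RNA of 36 samples was measured on single-colour Affymetrix arrays. Per the submitters' processing notes, the authors used GCRMA, of unstated version, to make the deposited log2 intensities. GCRMA models background from probe sequence, and values near its floor are not ranked. The values were used as deposited, from 2.19 to 15.89. Precision is limited by how many arrays each group has.

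Of the 45101 probe sets, 64 controls were left out. Symbols came from GEO's platform annotation (1 for 34945 probe sets, several for 932, none for 9160). The probe set of highest mean stood for its gene, and 11599 of 18193 genes passed log2 5 on at least 3 arrays. The model (limma 3.58.1, R 4.3.3) had 10 group means (26 residual degrees of freedom). Calls are at a two-sided adjusted p (Benjamini-Hochberg over all tested genes) under 0.05. Where all arrays of the lower group lay under log2 5, the higher mean was set against 5. That fold is a bound ("at least") where all arrays of the higher group lay over log2 5. The procedure was tested on simulated data.

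The 10 genes and all lists were chosen with earlier results of these data known. Named beyond the 10 were called list genes (up to 5 a list, by adjusted p), the 2 highest markers of a list, and the 8 genes nearest in lung-to-lung deviation. Other names (Foxj1, Dnah5, Scgb3a1, Epcam, Cldn7, Krt5, Lpo, Prol1, Gkn1, Atp4a, Atp4b, Muc2, Ltf, Sftpd, Il4, Il13, and genes named as untested) were chosen after their values were seen. Alternatives covered normalisation, filter, probe sets, array weights, a beta-actin covariate and left-out arrays. Promoters came from RefSeq (GRCm38.p6).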

Additional observations from a re-analysis of the deposited data

Results flagged for a closer look

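In groups of 4 arrays, 18 of the 72 combinations of probe set and group had 1 array whose gap to its nearest neighbour passed Dixon's 95% critical value. For independent combinations chance gives about 1 in 20. These share arrays and genes that moved together, and some hold tied values near the floor, so the count is a description.

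WT OVA array 4 accounted for 8, each the lowest of its group: Agr2 at 5.21 (nearest 8.16), Muc5ac at 3.34, Muc5b at 8.43, Spdef at 3.16, Tff2 at 6.88, Fer1l6 at 3.93, Scin at 3.24 and the second Clca1 probe set at 2.43. The same array had a Kit level of 6.90 and Eif2s3y at 9.07, as given above. KitWsh_MCifngR OVA array 1 accounted for 3, all lowest: Clca1 at 4.73 (nearest 13.74), Fer1l6 at 2.56 and the second Agr2 probe set at 3.16. KitWsh OVA array 3 was lowest for Agr2 (5.23) and Muc5ac (5.96), and KitWsh_MC OVA array 2 for Scin (5.09).

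High values made up the rest, all below log2 5: Foxa3 on KitWsh_MCigeR OVA array 1 (3.09) and KitWsh OVA array 4 (3.51), the second Agr2 probe set on WT PBS array 2 (3.25) and Fer1l6 on WT PBS array 4 (3.27). No cause of these values was tested.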

How the results depend on the processing

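No paired analysis was possible because the array numbers were given in accession order and the labels pair no samples. In the average over kinds every tested gene was called under each alternative and with each array left out, except Spdef after quantile normalisation (0.74, adjusted p = 0.0736). Within kinds the counts moved, as did the share of all tested genes called higher, and the cause was not tested. In WT mice 5 calls (0.535%) became 3 with no filter and 9 with array weights (21.3%), the beta-actin covariate (2.56%), 4 doubted arrays left out (9.88%) and only the compared groups (4.86%). In KitWsh mice 0 (0.138%) became 9 with array weights (14.1%), 5 with the covariate (0.802%), 8 with the 4 arrays left out (2.47%) and 8 with only the compared groups (2.56%). In KitWsh_MCifngR mice 0 (0.103%) became 6 with array weights (8.94%). In KitWsh_MCigeR mice 3 (16.0%) became 0 with no filter, the mean of probe sets, the covariate, the 4 arrays left out or only the compared groups, and 1 with every probe set tested or array weights (0.552%). With 1 array left out, calls ranged from 0 to 9 in WT, 0 to 7 in KitWsh, 2 to 7 in KitWsh_MC, 0 to 5 in KitWsh_MCifngR and 0 to 4 in KitWsh_MCigeR mice.

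Response differences went from 0 calls to 2 (KitWsh minus WT), 1 (KitWsh_MC minus KitWsh), 2 (KitWsh_MCifngR minus KitWsh_MC) and 2 (KitWsh_MCigeR minus KitWsh_MC) with array weights, and to 1 in KitWsh_MC minus KitWsh with only the compared groups. With 1 array left out they stayed at 0, except for 0 to 2 in KitWsh_MCigeR minus KitWsh_MC. In OVA lungs KitWsh_MC minus KitWsh fell to 0 with no filter (0 to 1 with 1 array left out), KitWsh_MCifngR minus KitWsh_MC reached 1 with every probe set and 2 without the 4 arrays, and KitWsh_MCigeR minus KitWsh_MC reached 3 with array weights (0 to 1 with 1 array left out). In PBS lungs KitWsh minus WT reached 1 with array weights, and KitWsh_MCifngR minus KitWsh_MC 2 with array weights and 5 with only the compared groups. Shares of all tested genes are not given for these pairs under these settings. In WT mice array weights took the share called higher in OVA from 0.535% to 21.3%. These counts are therefore no result about the 9 genes. The 4 doubted arrays were WT OVA array 4, KitWsh_MCifngR OVA arrays 2 and 3 and KitWsh_MCigeR PBS array 2.

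Of 555 fold changes of single genes under other settings, 462 kept direction and call, 65 became called, 24 were lost and 4 reversed. With 1 array left out 624 of 711 kept both, 24 became called, 60 were lost and 3 reversed. Muc5b in KitWsh_MCifngR mice turned to 0.77 with array weights, 0.62 without OVA array 1 and 0.13 without PBS array 3 (range with 1 array left out -0.55 to 0.62). Spdef in KitWsh_MCigeR mice turned to 0.50 with array weights, 0.27 with the covariate and 0.74 without PBS array 2 or without the 4 arrays (range with 1 array left out -0.88 to 0.74). None of these reversed values was called. Among the 10 genes, signal near the floor limits Foxa3, Spdef, the PBS levels of Muc5ac, Scin, Fer1l6 and Agr2, and some PBS levels of Clca1.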
